A study of Drosophila melanogaster with 2 samples.

Results

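Most sites of the tagged Drosophila protein Ravus lay over AT-rich DNA, and the peaks described here were the exception. They were the peaks of the authors' conservative list whose summit was GC-rich. For each peak, the summit base and the 50 bp to either side of it were read from the dm6 sequence. A peak was counted as GC-rich where at least 38% of these bases, 39 or more letters, were G or C. Of the 1472 conservative peaks on the chromosome arms, 234 met this limit and 1238 did not, so 15.9% of the peaks were GC-rich by this measure. Of windows of the same size tiled over the arms, 867706 of 1356741 (64.0%) met it. The data are chromatin immunoprecipitation with sequencing (ChIP-seq) from whole embryos aged 0 to 24 h. The flies expressed Ravus joined to enhanced green fluorescent protein (eGFP), and chromatin was precipitated with an anti-GFP antibody. There is 1 group, made of 2 biological replicates, and no other condition to set beside it. Whole embryos of this age range mix every tissue and stage, so a peak cannot be assigned to a cell type. The conservative list was made from both replicates, and each replicate also has a list of its own, which was used here to repeat each comparison.

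Ravus belongs to the MADF-BESS family, whose members pair a DNA-binding MADF domain with a BESS domain that contacts other proteins. The base composition of a binding site bears on what a protein meets there. AT-rich stretches in fly promoters and introns tend to be poor in nucleosomes, whereas short GC-rich stretches next to start sites hold the binding sequences of many promoter and insulator proteins. The ribosomal protein genes are a class of their own among fly promoters. They start at a pyrimidine-rich initiator instead of the usual one, and they are transcribed in nearly every cell.

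The summit windows show how the classes differ. Each is printed 5′ to 3′ on the forward strand of dm6. The first 3 come from the strongest GC-rich peaks whose window could be shown, and G and C are in capitals.
lncRNA:CR45643 peak, chr3R:16222434-16222534: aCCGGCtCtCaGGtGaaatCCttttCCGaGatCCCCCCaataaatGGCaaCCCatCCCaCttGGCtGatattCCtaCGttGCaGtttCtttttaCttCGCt
CG16753 peak, chr3L:3060740-3060840: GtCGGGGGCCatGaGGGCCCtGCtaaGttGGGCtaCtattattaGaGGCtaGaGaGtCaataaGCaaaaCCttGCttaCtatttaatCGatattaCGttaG
lncRNA:CR31044 peak, chr3R:29214395-29214495: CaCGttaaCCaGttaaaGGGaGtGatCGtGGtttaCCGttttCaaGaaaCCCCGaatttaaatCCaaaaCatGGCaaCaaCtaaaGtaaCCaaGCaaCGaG
For contrast, the next pair comes from the strongest AT-rich peaks under the same limits, marked the same way.
CG14100 peak, chr3L:19590563-19590663: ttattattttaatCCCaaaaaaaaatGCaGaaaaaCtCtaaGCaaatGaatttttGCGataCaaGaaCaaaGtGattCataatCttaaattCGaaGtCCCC
CG11050 peak, chr2L:6612667-6612767: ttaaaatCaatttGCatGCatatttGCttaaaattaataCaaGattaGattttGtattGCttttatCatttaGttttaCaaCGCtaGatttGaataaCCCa
Ribosomal protein genes made up much of the named gene classes with a GC-rich peak, and 2 of them are shown with G and C in capitals.
RpL32 peak, chr3R:30046262-30046362: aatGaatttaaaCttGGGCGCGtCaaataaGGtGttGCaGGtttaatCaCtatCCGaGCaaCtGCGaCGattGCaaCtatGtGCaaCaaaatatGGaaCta
RpL23A peak, chr3L:1668697-1668797: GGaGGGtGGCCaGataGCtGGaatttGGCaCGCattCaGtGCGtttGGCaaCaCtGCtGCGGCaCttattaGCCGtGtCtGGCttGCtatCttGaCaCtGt
The string GCGCCA, which was commoner at these summits than beside them, is in capitals on either strand in the following windows, with the bases of overlapping copies.
sp3 peak, chr3R:21520307-21520407: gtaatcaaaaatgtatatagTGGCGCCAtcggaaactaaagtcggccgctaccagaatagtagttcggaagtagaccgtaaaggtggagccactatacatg
jp peak, chr2L:9567443-9567543: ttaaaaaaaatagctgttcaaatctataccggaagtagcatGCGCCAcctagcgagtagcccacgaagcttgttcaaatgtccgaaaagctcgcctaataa
intergenic peak, chr3R:14391383-14391483: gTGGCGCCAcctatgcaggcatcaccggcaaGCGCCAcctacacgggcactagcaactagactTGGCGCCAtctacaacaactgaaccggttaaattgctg
The last pair holds ACAGTG, a string found beside AT-rich summits too, again in capitals on either strand.
slp2 peak, chr2L:3832485-3832585: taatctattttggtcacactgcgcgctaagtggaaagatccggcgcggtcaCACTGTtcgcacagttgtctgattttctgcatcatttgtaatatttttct
schlank peak, chrX:6265554-6265654: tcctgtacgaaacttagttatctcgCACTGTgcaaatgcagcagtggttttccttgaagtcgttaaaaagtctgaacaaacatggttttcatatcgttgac

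The GC content of these summits was close to that of their own surroundings. It averaged 45.2% ± 6.45 (SD, n = 234 peaks) at the summit, and 42.9% ± 7.96 in windows centred 300 bp to either side. The AT-rich peaks stood at 27.7% ± 5.43 at the summit (n = 1238) and at 44.5% ± 6.82 in the flanks. The summit values follow from how the peaks were chosen and are a description only. The flanks were not used in the choice, and the flanks of both classes had nearly the same composition. The summit was poorer in GC than its flanks in 107 of the 234 GC-rich peaks (45.7%) and in 1205 of the AT-rich ones (97.3%).

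**Figure D1:**
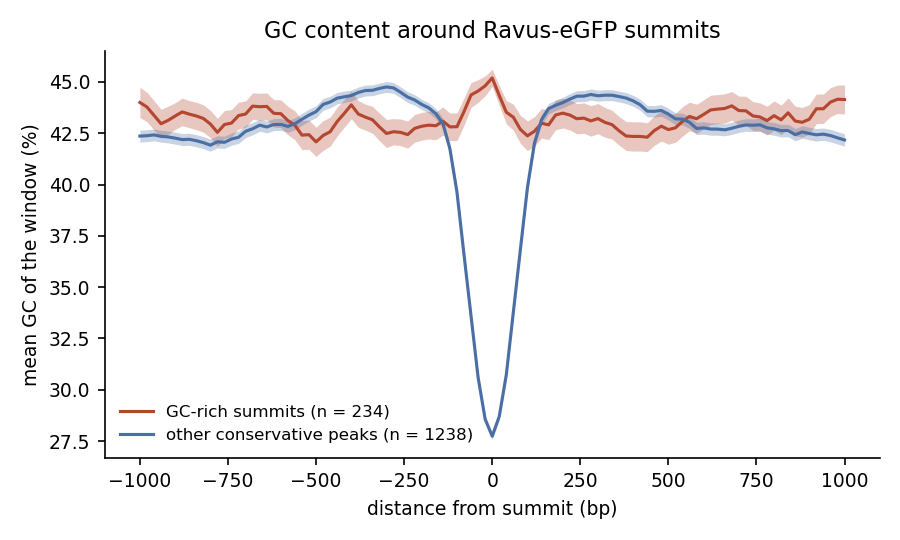
Mean GC content (%) of windows of the summit window's length by distance from the summit (bp), for the 234 GC-rich peaks and the 1238 other conservative peaks; shading is the standard error over peaks. The AT-rich class falls to 27.7% at the summit, and away from it the lines run close together.

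The GC-rich peaks were not a uniform set. Summit GC ran from 38.6 to 69.3%, with 98 peaks below 42% and 45 peaks at 50% or more. The summit was poorer in GC than the flanks in 72.4% of the peaks from 38 to 42%, and in 2.22% of those at 50% or more. The limit divides a continuous range of values. The 24 peaks at 38.6% had a median signal of 107, and the 41 peaks at 37.6% had one of 127. Among the former were peaks at pico, lncRNA:CR42794 and cic, with signals of 216, 190 and 180, and among the latter peaks at Sox14, lncRNA:CR44603 and mlt, with 591, 462 and 420.

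An AT-rich stretch was often close by all the same. The poorest window of that length centred inside a GC-rich peak had a median GC of 30.7% and lay a median of 78.5 bp from the summit. In 189 of the 234 peaks (80.8%) that window was below the limit of 38%. It is the lowest of many overlapping windows, and no such minimum was taken outside the peaks. Whether AT-rich stretches are commoner here than elsewhere was therefore not tested. In the AT-rich peaks the poorest window had a median GC of 21.8% and lay 23 bp from the summit. The jp peak is an example, with a summit at 42.6% and a window of 18.8% GC centred 89 bp away. The CG14506 peak is a counterexample, since its poorest window held 48.5% GC.

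The summit itself was placed with little variation between libraries. The summits called in replicates 1 and 2 lay a median of 17 bp apart in both classes. Read at the replicate's own summit, GC was at or above the limit in 190 of the 234 peaks in replicate 1 (81.2%) and in 187 in replicate 2 (79.9%). It was so at all 3 summits in 163 peaks (69.7%). Of the 234 peaks, 188 (80.3%) had the commonest width of 310 bp with the summit at the exact centre, against 931 (75.2%) of the others, and this form of the calls limits how finely a summit can be placed.

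The strongest GC-rich peak lay at a translation factor gene. Signal here is the value the authors deposited for each peak, whose scale no source at hand gives. Its signal was 819 in the conservative list, 345 in replicate 1 and 473 in replicate 2. It ranked 11 of 1472. The summit stood 66 bp inside the antisense gene asRNA:CR45928 on 2R and 95 bp upstream of eIF6, whose product holds the large ribosomal subunit apart from the small one. The peak by lncRNA:CR45643 on 3R followed, with a signal of 742 (348 and 396 in replicates 1 and 2), 911 bp upstream of the start site. CG1888 and CG5098 on 2R had promoter peaks of 589 and 587. A peak of 534 lay in an intron on 3L, 5711 bp from the start of CG16753. A peak of 523 lay 117 bp upstream of lncRNA:CR31044.

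Several of the next genes have known roles. Sesn encodes sestrin, a stress-induced regulator of TOR signalling, and its peak of 509 lay 202 bp upstream. The peak of 498 at tank had its summit 140 bp inside that gene. MFS10, a transporter gene of the major facilitator superfamily, had a peak of 458 on X, 171 bp upstream. TRAM, whose product assists protein passage into the endoplasmic reticulum, had one of 396, 91 bp inside. Trmt6, a subunit gene of a tRNA methyltransferase, had one of 378, 90 bp inside, and CG13501 had one of 342, 286 bp upstream. All 12 of these peaks were in the thresholded list of both replicates, and 10 of them were promoter peaks. Their summit GC lay between 39.6 and 47.5%, so none belonged to the GC-richest part of the set. Read at the replicates' own summits, GC was below the limit at tank in both (37.6%) and at Sesn in replicate 2 (35.6%). Flank GC lay on either side of summit GC. It was 59.9% at the eIF6 peak and 55.9% at Sesn, both with summits at 40.6%, and 26.2% at CG13501, with a summit at 47.5%.

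The GC-richest summits had moderate signals. The highest value, 69.3%, was on 2L in coding sequence of Pde1c, a phosphodiesterase gene, and 2795 bp from the start of CycY, the nearest, with a signal of 152. A peak 3404 bp from lncRNA:CR44761 on 2R and a peak 90 bp upstream of tmod, the tropomodulin gene, both stood at 65.3%, with signals of 131 and 99.8. A second coding summit, at 63.4%, lay in otp, a homeobox gene, with the start of Cib2 the nearest, and had a signal of 217. Top1, the gene of DNA topoisomerase I, had a peak at 63.4% GC 184 bp upstream of its start, with a signal of 123. Outside promoters and UTRs, no other conservative summit of either class lay in coding sequence, and promoter summits were not classed by it.

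Signal was lower at GC-rich summits. The median was 120 (quartiles 96.8 and 166, range 75.1 to 819), against 135 for the AT-rich peaks (102 and 198, range 66.7 to 1414), a ratio of 0.891. The distributions overlapped over most of their length. With the signal that replicate 1 gave at the same peaks the medians were 49.6 and 58.9, a ratio of 0.843, and with that of replicate 2 they were 70.2 and 77.6, a ratio of 0.905. In each replicate's own list the ratio was 0.852 and 0.844. All of these ratios lay below 1. The replicates come from the libraries that made the conservative list, so they are a repeat within this experiment. With 2 libraries in 1 group there is no test of the difference.

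The gap was widest at promoters. There the median was 123 for GC-rich and 150 for AT-rich peaks, a ratio of 0.818, whereas over 1000 bp from any start site the ratio was 0.957. Of the GC-rich peaks, 40 (17.1%, 95% exact interval 12.5 to 22.5%) were among the 368 strongest of the list, against 328 (26.5%) of the others. Within the GC-rich set the median was 128 in the class from 38 to 42% GC and 114 in the class at 50% or more, and Spearman's rho between signal and summit GC over the 234 peaks was -0.09. This is a description across peaks of the same libraries.

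**Figure D2:**
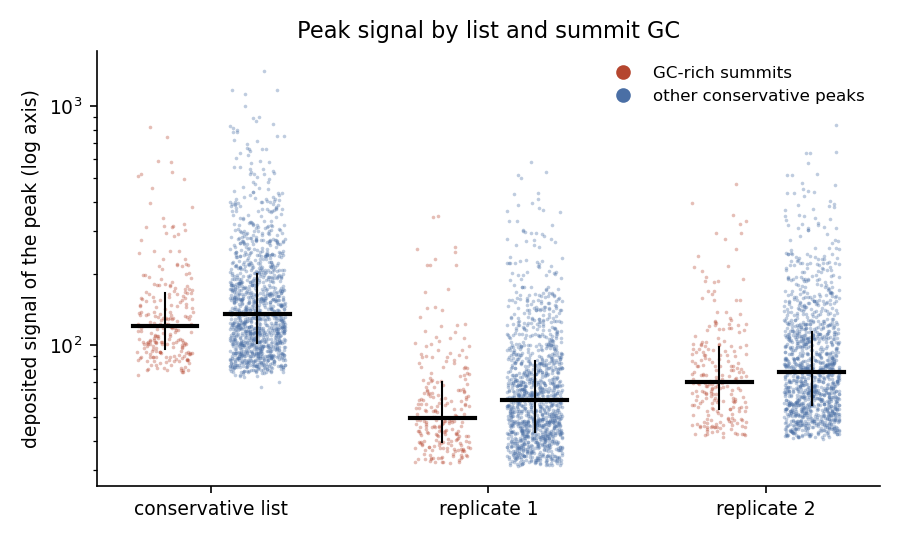
Deposited signal of each peak (log axis) in the conservative list and, at the same peaks, in the lists of replicates 1 and 2, for GC-rich and other conservative peaks; thick bars are medians and thin bars span the quartiles. The GC-rich medians (120, 49.6 and 70.2) lie below the others (135, 58.9 and 77.6), with wide overlap.

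GC-rich peaks were found in the replicates nearly as often as AT-rich ones. A thresholded peak of replicate 1 overlapped 186 of the 234 (79.5%; 83.3% of all conservative peaks), and one of replicate 2 overlapped 215 (91.9%; 93.2% of all). Both replicates held a peak at 176 (75.2%, 69.2 to 80.6%), against 993 (80.2%) of the AT-rich peaks and 79.4% of all. The difference was -5.00 points, with an interval of -11.3 to 0.599 over peaks. The further series list held 216 (92.3%; 93.4% of all). Between the signals of the replicates, Spearman's rho was 0.712 over 233 GC-rich peaks and 0.814 over 1234 AT-rich ones. The conservative list was thresholded by the irreproducible discovery rate, which favours peaks ranked alike in both replicates. The agreement within each class therefore follows in part from how the list was made.

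Promoters held a similar share of both classes, where a promoter peak is one with its summit within 500 bp of an annotated start site. They held 125 of the 234 GC-rich summits, or 53.4% (46.8 to 59.9%), against 52.1% of all conservative peaks. The share was 51.9% of the AT-rich peaks, and the interval of the difference, -5.41 to 8.43 points, includes 0. Introns held fewer of the GC-rich summits, 63 (26.9%) against 457 (36.9%), a difference of -9.99 points (-15.9 to -3.41). It was 25.8 against 36.2% in replicate 1 and 29.3 against 38.4% in replicate 2. Intergenic sequence held 32 (13.7%) against 118 (9.53%), and the replicates gave 16.1 against 9.34% and 14.9 against 10.1%. Coding sequence held 2 summits and 5′ UTRs held 5.

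Within promoters, GC-rich summits lay less far upstream, and larger shares of them were next to the start site or downstream of it. Their median signed position, negative upstream, was -83 bp (quartiles -189 and -11). That of the 642 AT-rich promoter summits was -140 bp (-221 and -87.25). The medians were -87 and -144 bp in replicate 1, and -67 and -139.5 bp in replicate 2. Downstream summits raise a signed median, so the gap between the medians is not one of distance alone. Of the GC-rich promoter summits, 96 (76.8%) were upstream of the start site, against 87.5% of the AT-rich ones and 85.8% of all. A summit within 50 bp of the start site was found at 19 of the 125 (15.2%, 9.41 to 22.7%) and at 37 of the 642 (5.76%, 4.09 to 7.86%). The same shares were 14.0 and 6.09% in replicate 1, and 27.4 and 6.82% in replicate 2. The fullest 50 bp bin of the GC-rich class, from -100 to -50 bp, held 27 summits. That of the AT-rich class, from -150 to -100 bp, held 152.

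**Figure D3:**
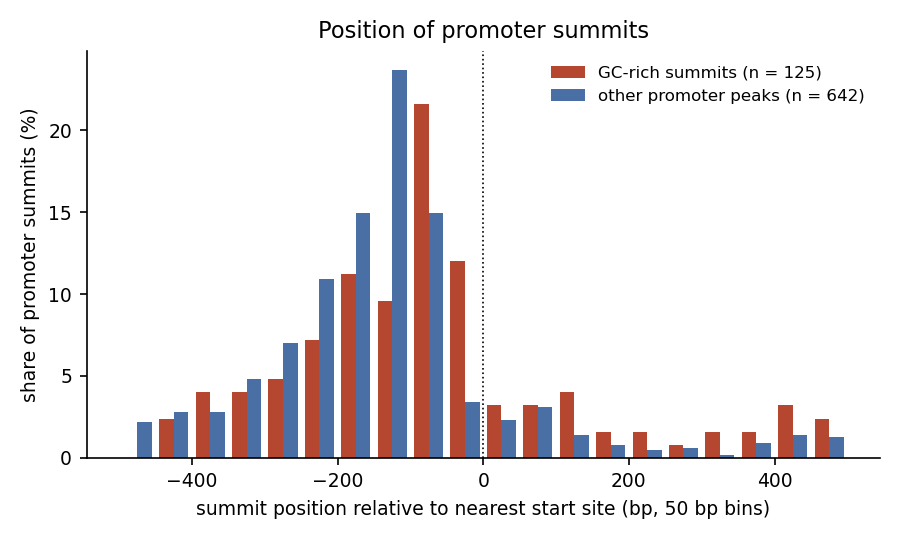
Share of promoter summits (%) in 50 bp bins by position relative to the nearest start site (bp, negative is upstream), for 125 GC-rich and 642 other conservative peaks. The GC-rich peaks are fullest in the bin from -100 to -50 bp (21.6%), the others in the bin from -150 to -100 bp (23.7%).

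Summits between divergent start sites were less common in the GC-rich class. Here the summit had to lie between a reverse-strand and a forward-strand start site, each within 500 bp. A summit outside that span was not counted, even with start sites on both strands nearby. The GC-rich class had 27 (11.5%) against 239 (19.3%), a difference of -7.77 points (-11.9 to -2.59), and the replicates gave 13.1 against 19.5% and 11.7 against 17.9%. GC-rich promoter summits were also less often upstream of the start site, and how far this lowers their share was not tested. Summit bases masked in lower case in the reference, here called repeat-marked, made up 6.84% against 32.9%. The mark also covers low-complexity sequence, which can be AT-rich, so this difference may follow in part from the choice by GC. By chromosome arm, X held 62 GC-rich peaks (26.5%) against 19.7% of the AT-rich ones, and 3L held 28 GC-rich peaks against 275 AT-rich ones (22.2%). These arm differences were smaller in the replicates' own lists. X stood at 22.5 against 19.9% and 21.1 against 19.9% in replicates 1 and 2, and 3L at 16.1 against 21.4% and 20.6 against 22.5%. On 2R there were 55 GC-rich peaks (23.5%) against 17.1% of the AT-rich ones, a difference of 6.38 points (0.938 to 12.5). The replicates' own lists gave 23.7 against 16.4% and 21.7 against 17.6% on 2R. In replicate 2 the interval of that difference, -0.305 to 8.91 points, includes 0. The other arms held 38 on 2L, 50 on 3R and 1 on 4. Y held 0 of 234, which allows a share of up to 1.56% (exact interval).

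The genes with a GC-rich promoter peak included a run of cytoplasmic ribosomal protein genes. Of the 93 such genes in the annotation, paralogs and genes named as ribosomal-like included, 15 had a promoter peak in the conservative list, and in 13 of them its summit was GC-rich (86.7%, exact interval 59.5 to 98.3%). Over all 1075 genes with a conservative promoter peak, 167 had a GC-rich one, or 15.5%, which is 0.914% of the 18277 annotated genes. In replicate 1's own list 10 of 12 ribosomal protein genes with a peak had a GC-rich one, while 15.9% of all genes with a peak did. In replicate 2's own list it was 22 of 27, beside 19.3%, and in the further series list 17 of 20, beside 16.3%. The excess of ribosomal protein genes among Ravus sites was known from an earlier analysis of these peaks. Their split between the classes of summit was looked at with that result in view, and it carries no test.

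RpL7, which encodes a protein of the large ribosomal subunit, had the strongest of these peaks, with a signal of 216 (64.9 in replicate 1 and 156 in replicate 2). Its summit stood 22 bp inside the gene at 62.4% GC. RpL32 had a signal of 192 (72.0 and 122), 151 bp upstream and at 39.6% GC. RpS27, of the small subunit, had 170 (73.0 and 96.4), 9 bp upstream and at 49.5% GC. The remaining genes are named because the count turns on them. They were RpL23A, RpL14, RpS21, RpL41, RpL23, RpL28, RpL22, RpS25, RpL11 and RpS16, with signals from 146 at RpL23A down to 82.9 at RpS16.

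The ribosomal protein peaks were modest in strength and close to their start sites. The 13 had a median signal of 116 and a median summit GC of 49.5%, and 12 of the 13 summits were upstream. Both replicates held a thresholded peak at 8 of them, and replicate 2 at 12. RpL23, RpL22, RpL11 and RpS16 had none in replicate 1, and RpL28 had none in replicate 2. The pair with an AT-rich summit, RpL34b and RpS20, had signals of 196 and 141 at 33.7 and 31.7% GC, in both replicates. RpL34b is among the GC-rich genes of replicate 1's own list, so its class depends on which summit is read. Control signal at these promoters was not analysed here.

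Other lists of genes for protein synthesis and energy supply held few genes with a promoter peak. Of the translation initiation and elongation factor genes, 5 had a promoter peak and 4 of these had a GC-rich one. They were eIF6 (819), eEF1gamma (153), eIF5B (129) and eIF1, which shares the peak of RpL28 (92.6). The replicates' own lists gave 3 of 6 and 6 of 8. The 8 mitochondrial ribosomal protein genes with a promoter peak all had an AT-rich one, where 15.5% of all genes with a promoter peak had a GC-rich one, and replicates 1 and 2 gave 0 of 9 and 0 of 11. A share of 0 of 8 allows up to 36.9%, so a share at the background was not excluded. None of the 5 respiratory chain genes, the 9 RNA polymerase II machinery genes, the 3 aminoacyl-tRNA synthetase genes or the 2 proteasome genes with a promoter peak had a GC-rich one. The replicates' own lists held 1 RNA polymerase II machinery gene each with a GC-rich peak, MED30 of 7 genes in replicate 1 and MED6 of 11 in replicate 2. With counts this small, a share of 0 of 9 allows up to 33.6%.

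**Figure D4:**
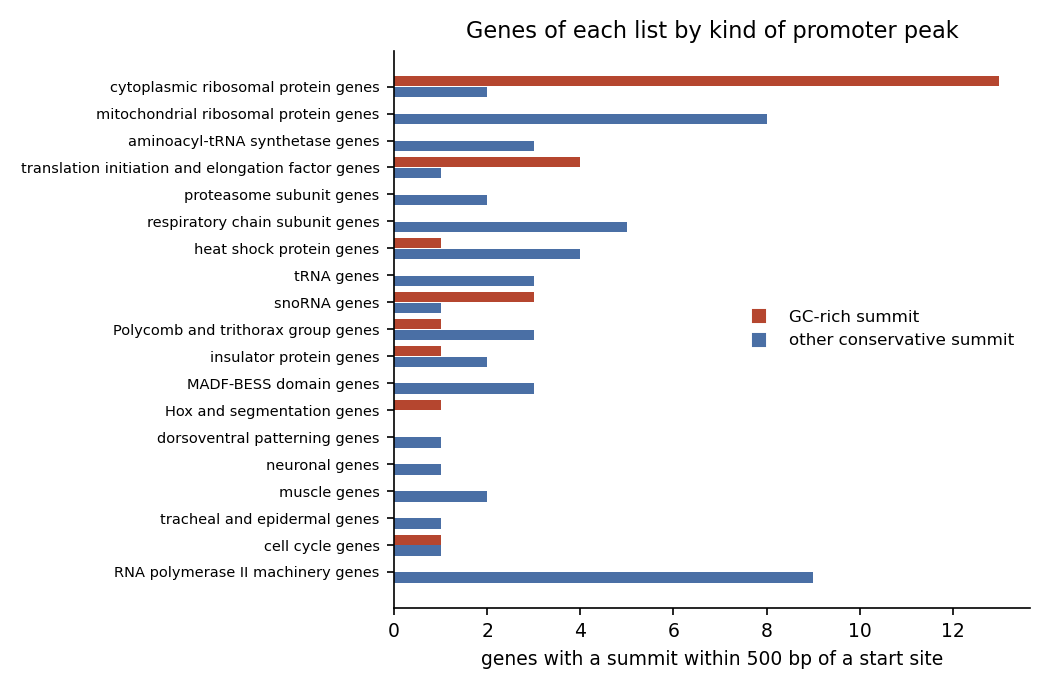
Number of genes of each list with a promoter peak in the conservative list, counted by the class of its summit; a gene with both kinds counts in both bars. Cytoplasmic ribosomal protein genes stand at 13 GC-rich and 2 other, and mitochondrial ribosomal protein genes at 0 and 8.

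The lists of regulators held from 1 to 4 genes each with a promoter peak, too few to set against the 15.5% of all such genes. Trl, the gene of GAGA factor, had a peak of 142 whose summit stood 122 bp inside the gene, and it was the only 1 of 4 Polycomb and trithorax group genes with a promoter peak to have a GC-rich one. bcd, the anterior determinant of the embryo, had a peak of 113, 189 bp upstream, with a thresholded peak in both replicates. It was the only 1 of the Hox and segmentation genes with a promoter peak, and replicate 1's own list also held it as GC-rich. In replicate 2's own list the 1 gene of these with a promoter peak had an AT-rich one. The class of the bcd peak therefore depends on which summit is read. Dp, the partner of E2F in cell cycle transcription, had a GC-rich peak of 200 and an AT-rich peak as well. Hsp83, the gene of the Hsp90 chaperone, had a peak of 94.1, with a thresholded peak in replicate 1 only. Stronger AT-rich peaks outside promoters also had Trl and Hsp83 as their nearest genes, with signals of 666 and 212. The snoRNA genes snoRNA:Or-aca5 and snoRNA:Psi28S-2949 lay by a single peak of 105, and snoRNA:Or-CD11a by the peak of RpL28. The 3 MADF-BESS genes with a promoter peak, Ravus included, had none that was GC-rich, and a share of 0 of 3 allows up to 70.8%. The replicates' own lists gave 0 of 2 and 1 of 4. The 1 was stwl in replicate 2, which had an AT-rich peak as well. The peak at Ravus itself stood at 30.7% GC with a signal of 91.3, and only replicate 2 held it above the threshold. The remaining lists gave 1 of 5 heat shock genes, 1 of 3 insulator genes, 0 of 3 tRNA genes, 0 of 2 muscle genes, and 0 of 1 for each of the dorsoventral, neuronal, and tracheal and epidermal lists. Histone, snRNA, and gut, hemocyte and germline genes had no promoter peak of either kind.

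Known sequence motifs had no common direction between GC-rich summits and their own flanks. A fixed list of 23 strings was searched on both strands. At GC-rich summits 11 were more frequent than in the flanks of the same peaks, 11 were less frequent and 1 was equal. The TATA box string TATAAA stood in 7.26% of GC-rich summits and 10.9% of their flanks, but in 30.7% of AT-rich summits. The GAGA factor string GAGAG stood in 16.2 and 17.7% of GC-rich summits and flanks, and in 6.62% of AT-rich summits. Windows of the same length tiled over the arms held TATAAA in 11.8% and GAGAG in 11.5%. Those with at least 38% GC held them in 5.03 and 13.9%. The classes were split by the GC of these same summit windows, so differences between the classes in such strings follow in part from that choice. The flanks met no such limit, so differences between GC-rich summits and their flanks, and the count of 11 against 11, follow in part from it as well. The DNA replication-related element TATCGATA was rare, in 6 GC-rich summits (2.56%) and 2 of 468 flanks (0.427%), with 0.277% of all tiled windows. A match is a description of the letters and not a bound site.

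A search of all 2080 6-mers, a string and its reverse complement counted together, put GCGCCA first by the difference between GC-rich summits and their flanks. It stood in 32 of 234 summits (13.7%, 9.55 to 18.8%), where 2.72% of all conservative summits held it. The flanks of the same peaks held it in 15 of 468 windows (3.21%), and tiled windows with at least 38% GC in 5.34%. AT-rich summits held it in 8 of 1238 (0.646%). In the replicates' own lists it stood in 12.3 and 12.2% of GC-rich summits and in 2.97 and 4.20% of their flanks. The string was picked for its difference, so these values are a description with no test. A GC-rich string is also favoured at a summit chosen for GC, and the flanks and the GC-rich tiles are the fairer comparison.

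Related strings were also counted at the GC-rich summits. GGCGCC, which shares GCGCC with it, stood in 19 GC-rich summits (8.12%) and 5 flanks (1.07%), and the palindrome TGGCGCCA, which holds GCGCCA on both strands, in 7 GC-rich summits and 1 AT-rich summit. GATGGCGC holds GCGCCA on the opposite strand, as TGGCGC, and AGGTGGCG holds only TGGCG of that. These strings stood in 8 GC-rich summits each, and in 1 and 0 of the flanks. The sp3 peak holds 1 TGGCGCCA, and the intergenic peak on 3R printed above holds 3 separate sites. In all, 9 GC-rich windows held GCGCCA at 2 or more start positions, both strands of the palindrome counted. The string was commonest in the GC-richest class, at 17 of 45 summits with 50% GC or more (37.8%, 23.8 to 53.5%), against 5 of 98 in the class from 38 to 42% (5.10%). Of the 13 ribosomal protein peaks, 4 held it, at RpL7, RpS21, RpL41 and RpL22. The 32 peaks with it had a median signal of 113, and 14 were at promoters (43.75%), against 123 and 55.0% for the 202 without.

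ACAGTG came next, in 34 GC-rich summits (14.5%, 10.3 to 19.7%), where 6.05% of all conservative summits held it. It stood in 20 of 468 flanks (4.27%), in 55 AT-rich summits (4.44%) and in 4.22% of GC-rich tiles. The replicates' own lists gave 14.4 and 13.8% of GC-rich summits and 3.81 and 5.01% of flanks. Of the GC-rich windows, 3 held both ACAGTG and GCGCCA, and 63 of the 234 (26.9%) held at least 1 of them. Of the 1238 AT-rich windows, 2 held both and 61 (4.93%) at least 1. Whether the strings tend to occur together or apart was not tested. AT-rich peaks held ACAGTG beside the summit. Of these, 11.8 and 11.5% had it in the 50 bp bins centred 100 bp upstream and downstream on the forward strand, 6.70 and 6.46% in those centred 50 bp away, and 0.969% in the central bin. GC-rich peaks were more even, with 7.69 and 9.83% at 100 bp, 10.3 and 9.40% at 50 bp, and 5.98% in the central bin. The central bins lie inside the window whose GC set the classes, so their difference follows in part from that choice.

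**Figure D5:**
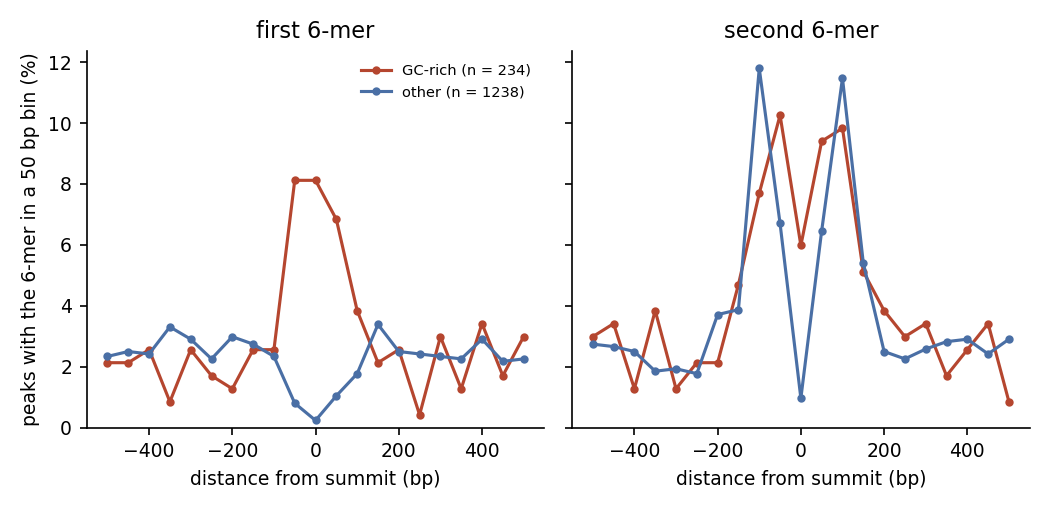
Share of peaks (%) with GCGCCA (left, first 6-mer) and ACAGTG (right, second 6-mer) on either strand in 50 bp bins by distance from the summit (bp). GCGCCA peaks at the GC-rich summits (8.12%) and dips at the others (0.242%), while ACAGTG flanks both classes and stands at 5.98% in the central bin of the GC-rich one and 0.969% in that of the other. The central bins lie inside the window that set the classes.

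Over a wider window both classes held ACAGTG. In the 301 bp around the summit it stood in 86 of 234 GC-rich peaks (36.8%, 30.6 to 43.3%) and in 394 of 1238 AT-rich peaks (31.8%, 29.2 to 34.5%). Windows of that size 600 bp away held it in 61 of 468 GC-rich flanks and 337 of 2476 AT-rich flanks (13.6%), and tiles over the arms in 11.1%. The share in the replicates' own lists was 29.2 and 29.3% for GC-rich peaks, and 32.7 and 30.5% for AT-rich ones. The nearest copy lay a median of 59 bp from the GC-rich summit and 80.5 bp from the AT-rich one. Measured from the lowest-GC window of the peak instead, the shares of the classes were close. Between 50 and 100 bp from the centre of the lowest-GC window, 20.9% of GC-rich and 21.3% of AT-rich peaks held the string. A window chosen for low GC cannot hold many such strings at its centre, so the share within 50 bp, 8.12 and 1.78%, follows in part from that choice.

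GCGCCA differed in this respect. In the 301 bp window it stood in 58 GC-rich peaks (24.8%, 19.4 to 30.8%), against 14.1% of their distant windows. In AT-rich peaks it stood in 105 (8.48%, 6.99 to 10.2%), below the 13.2% of their distant windows. The 301 bp include the bases whose GC set the classes and among which the string was picked, so these shares follow in part from that choice. The 8-mer CAGTGGCG shares CAGTG with ACAGTG and TGGCG with the opposite strand of GCGCCA. It stood in 22 GC-rich peaks (9.40%) and 30 AT-rich peaks (2.42%) over this window. Tiles held it in 0.899%. The replicates' own lists gave 8.90 and 4.61% for GC-rich peaks and 2.52 and 2.47% for AT-rich ones, so its excess was smaller in replicate 2.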

How the data were processed

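The authors deposited narrow peak lists on dm6, in which the signal column holds a strength that they computed for each peak. No label or header gives its scale, the aligner, the peak caller or the use of the control. Sonicated fragments were 200 to 800 bp, per the labels. Of 8 deposited lists, 6 were used: the conservative and further thresholded lists of the series, and the thresholded and ranked list of each replicate. Read depth is unknown, so a missing peak cannot be told from one below detection.

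Summits were placed by the deposited offset, and 2 of 1474 peaks lay off the arms. Sequence came from the RefSeq dm6 assembly and genes from Ensembl release 115 (BDGP6.54). As a check of the match, 99.8% of 30618 annotated start codons read ATG. Peaks sharing 1 bp or more were matched. A summit outside promoters took the first class that applied, UTR and coding sequence before other exons, and exons before introns. Distal means over 1000 bp from a start site. Intervals of shares are exact Clopper-Pearson 95% intervals, and those of differences are Newcombe's. Both cover counting error over peaks, which are not replicates, and no test was run. Work was done in Python 3.11.15 with numpy 2.4.6 and scipy 1.17.1. The functions were tested on simulated data with planted windows, strings and start sites.

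Named genes are those nearest to the 12 strongest peaks, the 5 of highest GC and the 3 on each side of the limit, up to 3 genes from each of 22 gene lists, and Ravus. The other ribosomal protein genes, the fourth translation factor gene, the later strings and the peaks shown for them were chosen after their values were seen. Members and lists were chosen with earlier results of these data known. Of the 12 strongest peaks, 5 on 2R and 4 over a UTR had windows that are not shown.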

Additional observations from a re-analysis of the deposited data

How the results depend on the processing

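The number of GC-rich peaks, 234, was 136 with a limit of 42%, 96 among the peaks with signal at or above the median, and between 236 and 369 in the list of a single replicate. It was 322 with a limit of 36%, 340 with a window of 100 bp to either side and 227 with 61 bp. The further list gave 279, and 218 remained without repeat-marked summits. The excess of GC at the summit over the flanks, 2.35 points, reversed to -0.0969 with a limit of 36% and to -0.333 with a window of 100 bp to either side. It was 6.76 with a limit of 42% and 2.07 to 3.66 in a single replicate, and the cause was not tested. The promoter share, 53.4%, was 50% with a limit of 36%, 52.9% with 42%, 53.7% with a 61 bp window, 50% with a window of 100 bp to either side, 53.8% in the further list, 54.2% among the stronger peaks, 53.7% without repeat-marked summits and 51.3 to 51.5% in a single replicate. With a promoter window of 1000 bp it was 69.2%, against 62.8% for AT-rich peaks. The signal ratio, 0.891, stayed below 1 in all alternatives run. It was 0.906 with a limit of 36%, 0.862 with 42%, 0.878 with 61 bp, 0.981 with 100 bp to either side, 0.871 in the further list, 0.912 among the stronger peaks, 0.916 without repeat-marked summits and 0.844 to 0.852 in a single replicate. Alternatives added after seeing the data gave 0.818 at promoters, 0.957 at distal sites, 0.901 for peaks narrower than 310 bp, and 0.843 and 0.905 with the signal of replicates 1 and 2. The share with a peak in both replicates, 75.2%, was 63.8% in the further list and 96.9% among the stronger peaks. For scale, the SD between the 2 replicates' lists was 94.0 for the number of peaks, 0.155 points for the promoter share and 0.00550 for the ratio. It was 1.12 points for the excess of GC at the summit. The share with a peak in both replicates has no such SD. No paired analysis was possible because the series has a single group. Read depth was unknown.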
